A study of Mus musculus with 11 samples.

Results

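The 10 genes followed here make, move, break down or sense acetylcholine in the retina of the newborn mouse, and they were chosen by name from the 47069 genes counted in each library. The starburst group holds Chat, Slc18a3, Slc5a7 and Ache, and the receptor group holds the nicotinic subunits Chrna3, Chrna4, Chrna6, Chrna7, Chrnb2 and Chrnb3. The title of the study asks whether visual axons bound for non-image forming nuclei need correlated activity of the perinatal retina. Retinas of C57BL/6 mice were collected at postnatal day 4 (P4, 2 wild-type and 3 Kir2.1 libraries) and day 8 (P8, 3 libraries of each genotype), which makes 11 libraries in 4 groups. Kir2.1 mice carry human Kir2.1, a potassium channel that lowers excitability, fused to eYFP behind a CAG promoter and a lox-flanked STOP cassette, together with Brn3b-cre, which removes the cassette in retinal ganglion cells. The control group is wild type in its genotype field, while the protocol names Brn3b-cre mice, so whether the controls carry Cre is not settled by the labels. The later age is day 8 in the age field and day 11 in the protocol, and P8 is used here as the field gives it. The labels do not say whether a library is 1 animal or a pool, so p-values measure the spread between these libraries, part of which may be technical.

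Before the retina responds to light, its ganglion cells fire in waves of correlated bursts. In stage II these waves are cholinergic: starburst amacrine cells release acetylcholine, which excites neighbouring starburst cells and ganglion cells through nicotinic receptors, and mice without Chrnb2 lack normal waves of this kind. Glutamate from bipolar cells drives the waves of the following stage III. Chat makes acetylcholine from choline, Slc18a3 (the vesicular transporter VAChT) loads it into synaptic vesicles, Slc5a7 (the transporter CHT1) takes choline back up, and Ache (acetylcholinesterase) splits the released transmitter. In the retina of this age, Chat, Slc18a3 and Slc5a7 mark starburst cells.

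Slc18a3 lies inside Chat, an arrangement called the cholinergic gene locus. In GENCODE release 21 (GRCm38), Chat spans chromosome 14 from 32408203 to 32465989 and Slc18a3 from 32462438 to 32464850, both on the minus strand. Slc18a3 has 1 exon and falls in intron 1 of 4 of the 8 annotated Chat transcripts, sharing 0 exon bases with Chat, so reads of the spliced messages can be counted apart. Slc5a7 lies on chromosome 17 from 54273590 to 54299034, also on the minus strand. These 3 genes were low in the same 2 libraries at P8, so the 250 bases before each start are shown, from the RefSeq promoter table (GRCm38.p6), 5′ to 3′ on the gene's strand.
Chat (chr14:32465910-32466159, minus strand): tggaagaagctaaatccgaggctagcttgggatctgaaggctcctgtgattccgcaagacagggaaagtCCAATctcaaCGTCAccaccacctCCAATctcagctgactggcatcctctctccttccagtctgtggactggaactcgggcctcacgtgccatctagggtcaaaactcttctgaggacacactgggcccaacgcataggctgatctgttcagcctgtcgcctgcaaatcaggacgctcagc
Slc18a3 (chr14:32464851-32465100, minus strand): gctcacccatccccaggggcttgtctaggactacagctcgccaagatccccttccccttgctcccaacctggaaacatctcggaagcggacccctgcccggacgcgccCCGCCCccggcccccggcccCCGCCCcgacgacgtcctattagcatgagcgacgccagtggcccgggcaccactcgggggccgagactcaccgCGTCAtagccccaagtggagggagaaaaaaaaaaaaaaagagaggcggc
Slc5a7 (chr17:54299035-54299284, minus strand): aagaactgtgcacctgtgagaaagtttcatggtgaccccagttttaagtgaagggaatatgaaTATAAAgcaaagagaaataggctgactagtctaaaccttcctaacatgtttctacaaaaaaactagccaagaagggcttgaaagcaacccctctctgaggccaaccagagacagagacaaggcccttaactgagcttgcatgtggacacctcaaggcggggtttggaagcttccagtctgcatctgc
Capitals mark matches on either strand to the motifs searched, none of which is contained in another. The Chat window held CCAAT, the core of a proximal promoter box, at 2 places, and this motif was in 33.8% of all 32851 windows of 250 bases in the table. The motif TGACG, part of the cAMP response element, was at 1 place in the Chat window and 1 in the Slc18a3 window, and in 17.8% of all windows. In the Slc18a3 window there were also 2 matches to GGGCGG, the GC box, which was in 32.7% of all windows. The Slc5a7 window had 1 match to TATAAA, the sequence of the TATA box, at bases -187 to -182 from the start, and this motif was in 12.4% of all windows. A homeodomain core, TAATTA, was in none of the 3 windows and in 4.84% of all windows. No motif was in all 3 windows. GC made up 54.8% of the Chat window, 66.0% of the Slc18a3 window and 45.6% of the Slc5a7 window, beside a median of 52.4% over all windows. The RefSeq starts of Chat and Slc18a3 are 1059 bases apart. That of Chat lies within its GENCODE span, so part of the Chat window falls inside the annotated gene.

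Counts assigned to genes ranged from 9362215 to 12478838 per library, and 1 count was worth 0.0801 to 0.107 CPM (counts per 1000000 counts assigned to genes) before scaling. All 10 members passed the filter on low counts, with 18188 genes tested. CPM values below are scaled for composition by the TMM method. Each library contained markers of many retinal cell types: 10 amacrine cell markers summed to 1873 to 4921 CPM and 13 ganglion cell markers to 198 to 1595 CPM, although the source field names ganglion cells. Some libraries stood apart within their group. Wild-type P4 replicate 2 had 853 CPM of 7 dividing cell markers against 2377 in replicate 1, and 57.4 CPM of the bipolar cell gene Grm6 against 0 in replicate 1. At P8 the 10 rod markers summed to 840 CPM in wild-type replicate 1, 3329 in replicate 2 and 7350 in replicate 3, while the Kir2.1 libraries had 6869 to 7094 CPM. Kir2.1 P8 replicate 2 had counts in 31325 genes, and the other libraries in 22609 to 24591. Mouse Kcnj2, whose product is Kir2.1, ranged from 2.46 CPM in a Kir2.1 library to 17.2 in a wild-type library; the transgene is human, so this count does not check the labels.

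Chat, Slc18a3 and Slc5a7 varied from library to library more than the receptor genes, and at P8 the same libraries were low for all 3. Chat was at 2.05 and 10.2 CPM in wild-type P4, 1.67, 0 and 1.05 in Kir2.1 P4, 19.1, 18.4 and 0.163 in wild-type P8, and 16.7, 3.76 and 11.7 in Kir2.1 P8 (replicates in order throughout). The 0 in Kir2.1 P4 replicate 2 allows up to 0.230 CPM (3 counts, counting error only). Slc18a3 was at 5.22 and 11.4 CPM in wild-type P4, 1.21, 0.307 and 2.89 in Kir2.1 P4, 21.3, 23.2 and 2.03 in wild-type P8, and 19.2, 2.82 and 15.2 in Kir2.1 P8. Both genes were lowest at P8 in wild-type replicate 3 and Kir2.1 replicate 2. Slc5a7 was at 2.57 and 6.85 CPM in wild-type P4, 0.558, 1.15 and 0.612 in Kir2.1 P4, 21.6, 22.2 and 1.06 in wild-type P8, and 13.3, 2.61 and 14.5 in Kir2.1 P8. The same 2 libraries were the low ones, so each genotype at P8 held both high and low libraries. Within wild-type P8 the highest library exceeded the lowest by 118 times for Chat, which had 2 counts in the lowest, 11.4 times for Slc18a3 and 20.99 times for Slc5a7.

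**Figure D1:**
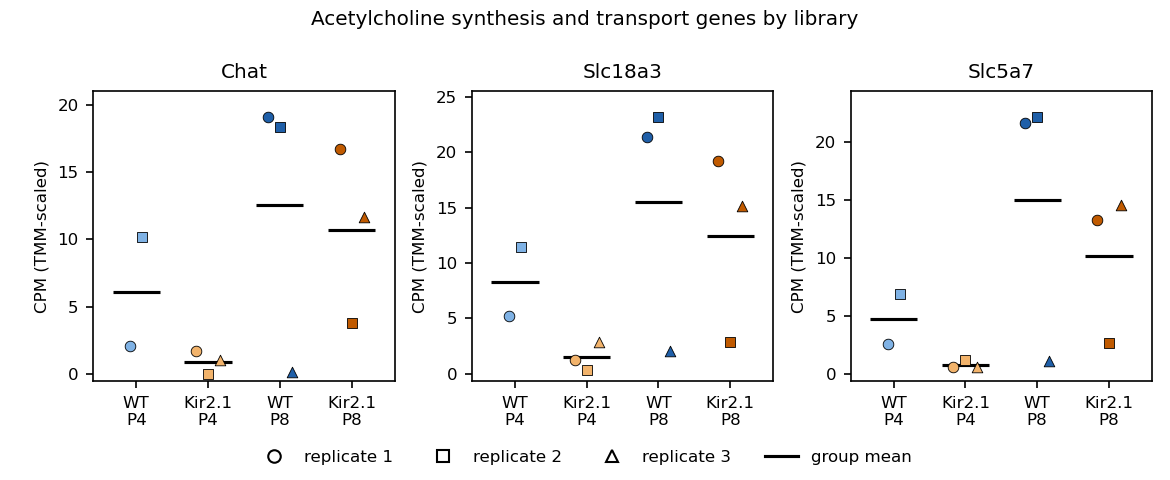
Level of Chat, Slc18a3 and Slc5a7 in each library (TMM-scaled CPM, linear axis) by genotype and age; symbols give the replicate number and the horizontal line the group mean. The Kir2.1 P4 libraries lie below both wild-type P4 libraries for each gene, and 1 library of each genotype at P8 lies far below its group.

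Over the 12233 genes with a mean of at least 5 CPM, the SD of log2 CPM within groups had a median of 0.226. That of Chat was 2.20, with 6 genes larger, that of Slc5a7 1.54, with 20 larger, and that of Slc18a3 1.51, with 23 larger. Chrnb2 (0.232) and Chrna3 (0.238) were near the median, and the other members lay between 0.350 and 0.568. The summed CPM of Chat, Slc18a3 and Slc5a7 was 62.1, 63.8 and 3.25 in wild-type P8 and 49.2, 9.18 and 41.4 in Kir2.1 P8. Of the list of 5 other starburst markers (Fezf1, Megf10, Slc35d3, Sox2 and Isl1), Megf10, a cell-surface protein that spaces starburst cells, was at 132, 112 and 22.7 CPM in wild-type P8 and 89.0, 39.1 and 79.8 in Kir2.1 P8. Fezf1 and Sox2 were also lowest in those libraries of each genotype, with Fezf1 at 1.38 CPM in wild-type P8 replicate 3 and 0.417 in Kir2.1 P8 replicate 2. The others differed: Isl1, which bipolar cells also express, was at 163, 210 and 303 CPM in wild-type P8, and Slc35d3 at 2.11, 1.53 and 2.93, both highest in replicate 3. In Kir2.1 P8, Isl1 was at 280, 269 and 265 CPM, and Slc35d3 at 0.745, 0.626 and 1.07, lowest in replicate 2. The 5 genes summed to 324, 352 and 347 CPM in wild-type P8, of which Isl1 made up the larger part, and to 393, 323 and 364 in Kir2.1 P8. The 10 amacrine cell markers had sums of 4921, 3899 and 2163 CPM in wild-type P8 and 2636, 1873 and 2878 CPM in Kir2.1 P8. The libraries lowest for the 3 genes in each genotype were also lowest for Megf10 and for the summed amacrine markers, none of which was at 0, and for the summed ganglion cell markers. In bulk tissue, fewer cells of a type and less RNA per cell cannot be told apart, and the part of the amacrine and ganglion cell markers in these values was not tested.

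**Figure D2:**
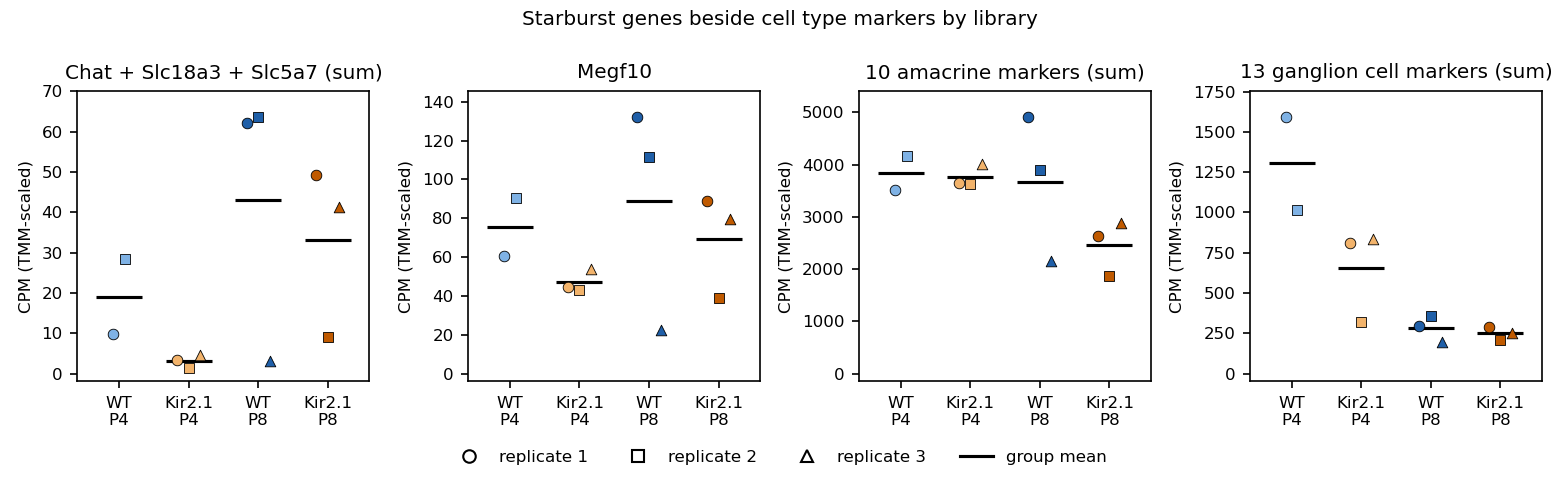
Summed level of Chat, Slc18a3 and Slc5a7, level of Megf10, and summed levels of 10 amacrine and 13 ganglion cell markers in each library (TMM-scaled CPM). Wild-type P8 replicate 3 (triangle) and Kir2.1 P8 replicate 2 (square) are the lowest of their groups in each of the 4 panels, and ganglion cell markers are highest in wild-type P4.

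Ache, which ends the signal, varied less between libraries. It was at 40.7 and 35.3 CPM in wild-type P4, 27.3, 17.4 and 25.8 in Kir2.1 P4, 32.6, 22.6 and 21.3 in wild-type P8, and 17.3, 15.4 and 27.3 in Kir2.1 P8. Both wild-type P4 libraries were above all others. Ache shares 98 exon bases with the long non-coding RNA gene Gm42456 on the opposite strand, and the strand setting of the counting is not given in the sources used here.

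Among the receptor genes, Chrna4 and Chrnb2 encode the alpha4 and beta2 subunits, which assemble into a common neuronal receptor of high affinity. Chrna4 was at 81.1 and 97.4 CPM in wild-type P4, 49.5, 57.8 and 71.8 in Kir2.1 P4, 145, 103 and 62.9 in wild-type P8, and 79.8, 49.3 and 94.9 in Kir2.1 P8. Chrnb2 was at 73.4 and 83.1 CPM in wild-type P4, 54.1, 51.6 and 62.0 in Kir2.1 P4, 88.7, 69.3 and 52.6 in wild-type P8, and 57.1, 50.7 and 61.7 in Kir2.1 P8. For both genes the wild-type P4 libraries lay above the Kir2.1 P4 libraries, and the P8 groups overlapped. Chrnb2 shares 1365 exon bases with Adar on the opposite strand, so without a known strand setting reads of both genes cannot be told apart there.

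Chrna6 and Chrnb3 encode subunits that occur together in receptors of visual axons, and they are neighbours on chromosome 8 (Chrna6 from 27403212 to 27413944, minus strand; Chrnb3 from 27368711 to 27399730, plus strand). Chrna6 was at 22.0 and 23.4 CPM in wild-type P4, 8.84, 4.76 and 14.4 in Kir2.1 P4, 9.07, 13.01 and 7.97 in wild-type P8, and 8.20, 7.201 and 4.999 in Kir2.1 P8. Chrnb3 was at 31.3 and 35.4 CPM in wild-type P4, 12.1, 9.13 and 19.2 in Kir2.1 P4, 15.9, 22.1 and 6.59 in wild-type P8, and 9.53, 11.6 and 13.03 in Kir2.1 P8. Wild-type P4 was the highest group for both, and no library of another group reached it. The 13 ganglion cell markers summed to 1595 and 1012 CPM in wild-type P4, 811, 318 and 834 in Kir2.1 P4, 297, 360 and 198 in wild-type P8 and 292, 207 and 254 in Kir2.1 P8. At P4 the library lowest for these markers, Kir2.1 replicate 2, was also lowest for Chrna6 and Chrnb3.

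Chrna3, the alpha3 subunit, separated the ages and not the genotypes. It was at 33.9 and 24.5 CPM in wild-type P4, 28.1, 28.6 and 33.4 in Kir2.1 P4, 13.7, 12.3 and 10.7 in wild-type P8, and 16.2, 12.2 and 10.6 in Kir2.1 P8. Every P4 library was above every P8 library. Chrna7, the subunit of the homomeric alpha7 receptor, was at 4.28 and 8.54 CPM in wild-type P4, 4.74, 6.06 and 9.27 in Kir2.1 P4, 11.5, 11.99 and 5.61 in wild-type P8, and 7.54, 5.53 and 11.4 in Kir2.1 P8. Its 4 groups overlapped.

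**Figure D3:**
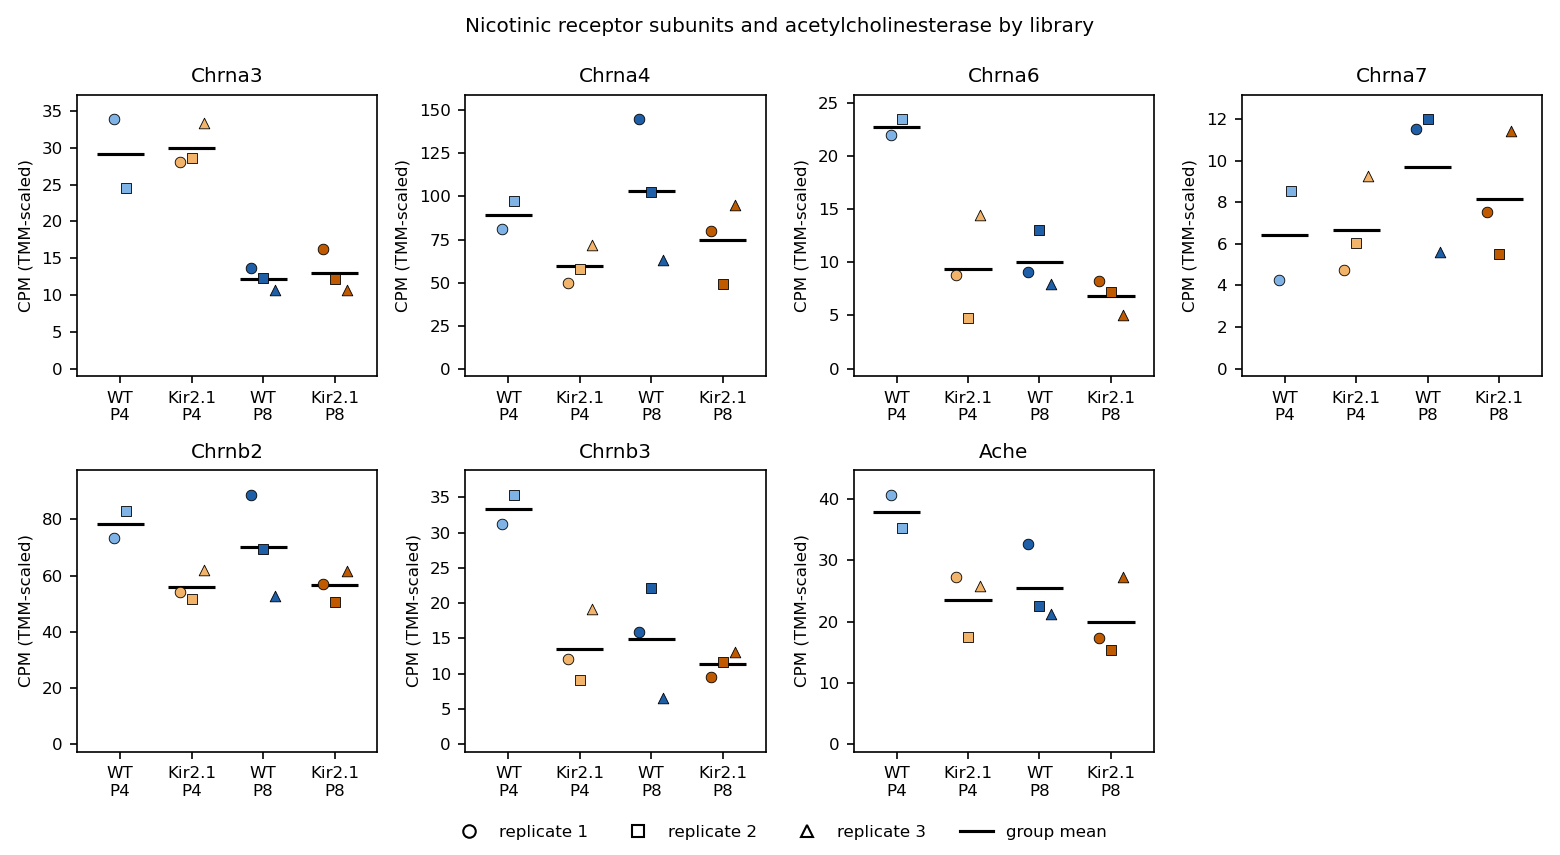
Level of 6 nicotinic receptor subunits and of Ache in each library (TMM-scaled CPM, linear axis from 0, with its own scale per gene); symbols give the replicate number and the line the group mean. Chrna3 is split by age, and Chrna6 and Chrnb3 are highest in both wild-type P4 libraries.

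Levels between genes were compared per kilobase of exon. On this scale Chrna4 was the highest member in each of the 4 groups, with a mean of 17.8 ± 2.30 CPM per kb in wild-type P4 (SD, n = 2), 11.9 ± 2.25 in Kir2.1 P4, 20.6 ± 8.15 in wild-type P8 and 14.9 ± 4.63 in Kir2.1 P8 (SD, n = 3 each). Chrnb2 came next, at 9.34 ± 0.812, 6.67 ± 0.650, 8.38 ± 2.15 and 6.74 ± 0.657 CPM per kb in the same order, and its libraries did not overlap those of Chrna4 in any group. Slc5a7 was last at P4, at 0.834 ± 0.537 CPM per kb in wild type and 0.137 ± 0.0581 in Kir2.1. In wild-type P4 the order from Chrna4 was Chrnb2, Ache, Chrna6, Chrna3, Chrnb3, Slc18a3, Chrna7, Chat and Slc5a7, in which Chrnb2 overlapped Ache, Ache overlapped Chrna6, Chrna3 overlapped Chrnb3, Chrna7 overlapped Chat, and Chat overlapped Slc5a7. Slc18a3 had rank 7 in wild-type P4, rank 8 in Kir2.1 P4 and rank 3 in both P8 groups, where its libraries overlapped those of Chrnb2 and Ache. From rank 5 to rank 10 at P8, each gene overlapped the next in both genotypes.

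At P4, 8 of the 10 members had lower values in Kir2.1 retinas than in wild-type retinas (48.7% of all genes did), and none passed the test. For these 8 genes (Chat, Slc18a3, Slc5a7, Ache, Chrna4, Chrna6, Chrnb2 and Chrnb3) every Kir2.1 library was below both wild-type libraries, a split found in 14.4% of all genes tested. In edgeR's quasi-likelihood test with Benjamini-Hochberg adjustment, 0 members and 0 of 18188 genes (0%) had an adjusted p under 0.05. The unadjusted p was under 0.05 for 6 members and for 7.22% of all genes. The DESeq2 test called 34 genes and voom 0, with 0 members in either. The median log2 fold change of the 10 members was -0.99, and that of all genes was 0.01.

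Chat had a log2 fold change of -2.78 ± 1.34 (SE, adjusted p = 0.691 in edgeR), Slc18a3 of -2.51 ± 1.01 and Slc5a7 of -2.57 ± 1.07 (adjusted p = 0.677 for both). Without wild-type P4 replicate 2 the value of Chat was -1.21, that of Slc18a3 -1.84 and that of Slc5a7 -1.69. At the other end, Chat was at -3.57 without Kir2.1 P4 replicate 1, Slc18a3 at -3.49 without Kir2.1 P4 replicate 3 and Slc5a7 at -3.11 without wild-type P4 replicate 1. Chrna6 was at -1.28 ± 0.38 and Chrnb3 at -1.31 ± 0.40, both with an adjusted p of 0.677 in edgeR. Ache (-0.69 ± 0.27) and Chrnb2 (-0.49 ± 0.19) had the same adjusted p, and Chrna4 was at -0.58 ± 0.32 (adjusted p = 0.713). Chrna3 was at 0.04 ± 0.22 and Chrna7 at 0.06 ± 0.45, with a 95% interval for Chrna7 from -0.91 to 1.04. Without wild-type P4 replicate 1 Chrna7 was at -0.36, and without replicate 2 at 0.65. All 13 ganglion cell markers had lower values in Kir2.1 at P4, 8 of them with no overlap, while the sum of the 10 amacrine markers was 3516 and 4170 CPM in wild type, and in Kir2.1 between 3639 and 4016 CPM. Of these 10, 4 were higher and 6 lower in Kir2.1, with no overlap for Calb2 (calretinin), at -1.37 ± 0.43 (adjusted p = 0.677 in edgeR), and for Meis2, at 0.16 ± 0.14 (adjusted p = 0.811). Of the 5 other starburst markers, 3 were lower with no overlap: Megf10, at 60.7 and 90.5 CPM in wild type and 44.6, 43.1 and 53.7 in Kir2.1, Fezf1 (log2 fold change -2.90 ± 1.11, adjusted p = 0.677) and Isl1 (-1.92 ± 0.41, adjusted p = 0.583). Sox2 was higher with no overlap, and Slc35d3 overlapped. All 9 bipolar cell markers were lower in Kir2.1, with a median log2 fold change of -2.14 and no overlap for 3, among them Isl1, which is in both lists. Their sum was 175 and 426 CPM in wild type and 118 to 149 in Kir2.1. For several of them only wild-type replicate 2 was high. Grm6 was at 0 and 57.4 CPM in wild type and 0.0930 to 0.461 in Kir2.1, and Vsx1 at 0.342 and 18.8 beside 0.437 to 1.07. Prkca (94.8 CPM) and Isl1 (72.2 CPM) made up most of the sum in wild-type replicate 1. The part of the ganglion cell, starburst and bipolar cell markers in the values of the members was not tested.

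The authors' deposited table for P4 gave Chat a log2 fold change of -3.28 with an adjusted p of 0.0131 and Chrnb3 one of -1.25 with an adjusted p of 0.0110. These were the 2 members under 0.05 in that table, where 2.27% of 13830 genes with an adjusted p were. In the authors' deposited table Chrna6 had -1.26 (adjusted p = 0.0944), Slc18a3 -2.17 (adjusted p = 0.219), and Slc5a7 -2.26 with no adjusted p. The libraries that entered the authors' table and its settings are not given in the sources used here. Its mean counts did not match those of the 5 P4 libraries: after scaling by DESeq2 size factors and a common factor, they were within 10% for 41.2% of 16250 genes with a mean of at least 10 (46.6% of 16466 at P8). Across all genes tested, the fold changes of the authors' deposited table had a Pearson correlation of 0.618 with those of edgeR at P4 and 0.805 at P8, as a description. These calls may thus rest on other counts than the values above.

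At P8 no member was called between the genotypes, and the groups overlapped for each. In edgeR 0 members and 0 of 18188 genes (0%) had an adjusted p under 0.05, and the unadjusted p was under 0.05 for 0 members and 6.82% of all genes. DESeq2 called 3 genes and voom 0, with 0 members in either. Values were lower in Kir2.1 for 9 members, Chrna3 being the exception (49.4% of all genes were lower), with 0 members whose groups lay apart (they lay apart, with Kir2.1 lower, for 5.11% of all genes). The median log2 fold change was -0.33 for the members and 0.003 for all genes. All 10 amacrine markers were also lower in Kir2.1 (median -0.54), and all 10 rod markers higher (median 0.88), with 0 called in either list, and their part in the members' values was not tested. Chrnb2 had -0.31 ± 0.17 (SE, adjusted p = 0.699 in edgeR) and Chrna4 -0.47 ± 0.29 (adjusted p = 0.708). Without wild-type P8 replicate 1, Chrnb2 was at -0.11 and Chrna4 at -0.15, and without replicate 3 they were at -0.48 and -0.73. For Chat the value was -0.22 with a 95% interval from -2.45 to 2.02, and for Slc5a7 -0.55 with one from -2.30 to 1.20, so large differences in either direction lie within these intervals. Without wild-type P8 replicate 3, Chat was at -0.80, Slc18a3 at -0.84 and Slc5a7 at -1.10, and still 0 members were called. Other libraries turned the direction: Chat was at 0.22 without wild-type P8 replicate 1, Slc18a3 at 0.15 without Kir2.1 P8 replicate 2, and Chrnb3 at 0.025 without wild-type P8 replicate 2. The direction of Chat turned in 3 of 6 such fits, and that of Slc18a3 in 2. That of Slc5a7 turned in none, but its value was -0.10 without Kir2.1 P8 replicate 2. In the authors' deposited table for P8, 0 members were under 0.05 beside 7.27% of 13396 genes, the lowest adjusted p being that of Chrna4 (log2 fold change -0.71, adjusted p = 0.0530). The authors' deposited table gave Slc5a7 -1.33 (adjusted p = 0.0773), Chat -0.89 (adjusted p = 0.290) and Slc18a3 -0.88 (adjusted p = 0.724) at P8.

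Whether the Kir2.1 difference itself changed between P4 and P8 was tested by the interaction. It was called for 0 members and 0 genes in edgeR (0%), and for none in DESeq2 or voom, and the unadjusted p was under 0.05 for 0 members and 3.09% of genes. Chat had the largest estimate among members, 2.56 ± 1.69 (SE, adjusted p = 0.9998 in edgeR), followed by Slc18a3 at 2.20 ± 1.30 and Slc5a7 at 2.02 ± 1.34. The intervals are wide, from -1.12 to 6.25 for Chat.

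**Figure D4:**
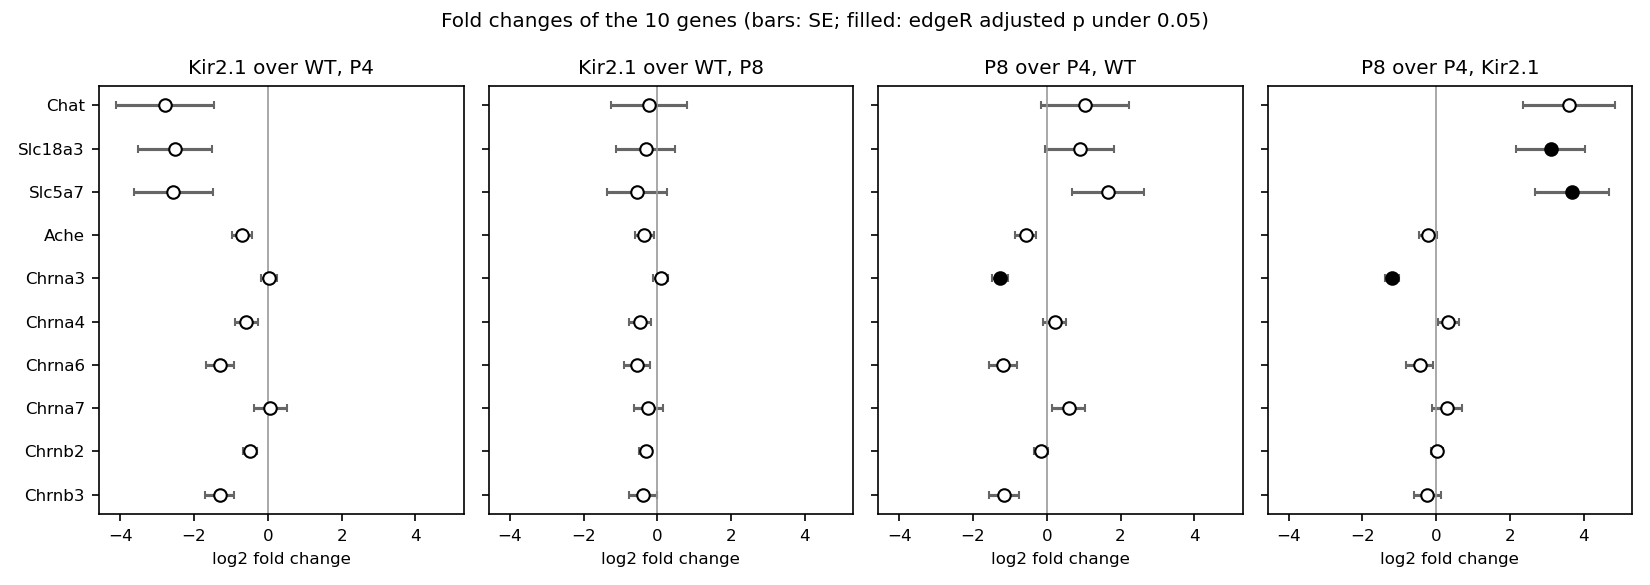
Log2 fold change of each of the 10 genes, with its SE as a bar, in 4 comparisons from the edgeR fit; filled circles have an adjusted p under 0.05. No circle is filled in either genotype comparison, Chrna3 is filled in both age comparisons, and Slc18a3 and Slc5a7 are filled from P4 to P8 in Kir2.1. The 4 comparisons share libraries.

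With age, Chrna3 fell in both genotypes. In wild type its log2 fold change from P4 to P8 was -1.26 ± 0.22 (SE, adjusted p = 0.00557 in edgeR), and it was the 1 member called, beside 4.39% of all genes (3.58% lower). Its adjusted p was 0.139 without wild-type P4 replicate 1 (log2 fold change -1.01) and 0.0763 in a fit of the wild-type libraries alone. In Kir2.1 the change was -1.202 ± 0.20 (adjusted p = 0.00191 in edgeR), with adjusted p from 0.00312 to 0.0126 when any 1 library was left out. Of the other members in wild type, Chrna6 was at -1.179 ± 0.38 (adjusted p = 0.107 in edgeR), Chrnb3 at -1.17 ± 0.40 (adjusted p = 0.130) and Ache at -0.57 ± 0.27 (adjusted p = 0.275), each with P8 libraries below all P4 libraries, which with Chrna3 makes 4 such members (16.9% of all genes). Most ganglion cell markers fell over the same interval, with 11 of 13 called lower in wild type and 10 of 13 in Kir2.1, where the neurofilament gene Nefh was called higher (1.32 ± 0.28, adjusted p = 0.00785 in edgeR). Their part in the change of Chrna3 was not tested.

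In Kir2.1 retinas, Slc5a7 and Slc18a3 rose from P4 to P8. Slc5a7 changed by 3.68 ± 0.99 on the log2 scale (SE, adjusted p = 0.0257 in edgeR) and Slc18a3 by 3.10 ± 0.95 (adjusted p = 0.0435). The groups lay apart for Slc5a7 but overlapped for Slc18a3, at 2.82 CPM in P8 replicate 2 and 2.89 in P4 replicate 3. Chat was at 3.60 ± 1.26 (adjusted p = 0.0720), with all P8 libraries above all P4 libraries, as had 19.4% of all genes. With Chrna3 this makes 3 of 10 members called, beside 16.7% of all genes (7.93% higher and 8.73% lower). Neither rise was called when any 1 Kir2.1 library other than P8 replicate 2 was left out: the adjusted p then ran from 0.0606 to 0.102 for Slc5a7 (log2 fold changes 3.33 to 4.09) and from 0.0507 to 0.142 for Slc18a3 (2.59 to 4.07). Under voom with sample weights both were also lost (adjusted p = 0.1803 for Slc5a7 and 0.135 for Slc18a3). In Kir2.1 over this interval, 9 of 9 bipolar and 10 of 10 rod markers were called higher and 7 of 7 dividing cell markers lower, while of the 10 amacrine markers 1 was called higher and 4 lower. The part of these markers in the rise was not tested. In wild type, where P8 replicate 3 was low, the P4 to P8 interval gave 1.66 ± 0.97 for Slc5a7 (adjusted p = 0.393 in edgeR), 0.90 ± 0.93 for Slc18a3 and 1.04 ± 1.20 for Chat, none of them called. Without that library the wild-type value of Slc5a7 was 2.22 (adjusted p = 0.0795). Leaving out a P4 library also moved these values: without wild-type P4 replicate 1 they were 0.30 for Chat, 0.44 for Slc18a3 and 1.12 for Slc5a7, and without P4 replicate 2 they were 2.602, 1.57 and 2.53, again with none called. Chrna4, Chrna7 and Chrnb2 were called at neither interval, with log2 fold changes from -0.16 to 0.60. In wild type Chrna7 ran from 0.18 without P4 replicate 1 to 1.181 without P4 replicate 2, Chrna4 turned to -0.12 without P8 replicate 1, and Chrnb2 to 0.014 without P8 replicate 3.

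The rest of the cholinergic pathway was read from lists of other nicotinic subunits, muscarinic receptors, receptor assembly and lynx-type proteins, esterase partners and choline handling. No gene of these lists was called between genotypes at either age. Of the 10 other nicotinic subunits 4 passed the filter, and 2 of these rose with age in Kir2.1, where 7.93% of all genes rose: Chrna2 by 2.16 ± 0.52 (SE, log2, adjusted p = 0.0151 in edgeR) and Chrna5, encoded next to Chrna3, by 1.43 ± 0.45 (adjusted p = 0.0466). In wild type neither was called, with Chrna2 at 1.02 ± 0.55 (adjusted p = 0.350 in edgeR) and Chrna5 at 0.78 ± 0.50 (adjusted p = 0.444). Of 4 muscarinic receptors that passed, of 5, Chrm2 rose in Kir2.1 (1.06 ± 0.29, adjusted p = 0.0285). In wild type Chrm2 was at 1.25 ± 0.32, with an adjusted p of 0.0513 in edgeR.

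All 7 assembly and lynx-type genes passed the filter. Lypd6, a lynx-type membrane protein, fell with age in wild type (-1.83 ± 0.30, adjusted p = 0.00402 in edgeR) and in Kir2.1 (-2.22 ± 0.28, adjusted p = 0.000365). It was at 25.1 and 16.8 CPM in wild-type P4, 21.5, 36.6 and 20.9 in Kir2.1 P4, and 4.80 to 6.96 in the 6 P8 libraries. Its relative Lypd1 rose in wild type (1.01 ± 0.25, adjusted p = 0.0406 in edgeR) and was at 0.65 ± 0.22 in Kir2.1 (adjusted p = 0.0673). Ric3, a chaperone of nicotinic receptors, rose in Kir2.1 by 0.49 ± 0.15 (adjusted p = 0.0384), and Tmem35a, the assembly factor NACHO, by 0.67 ± 0.21 (adjusted p = 0.0462). In wild type Ric3 was at 0.20 ± 0.16 (adjusted p = 0.563 in edgeR) and Tmem35a at 0.75 ± 0.23 (adjusted p = 0.0969). Of the 3 esterase genes 2 passed, Bche and Prima1, and neither was called in any comparison. Of 7 choline genes 5 passed, and the choline transporter Slc44a1 rose in Kir2.1 by 1.178 ± 0.21 (adjusted p = 0.00272 in edgeR) and was at 0.73 ± 0.23 in wild type (adjusted p = 0.108). Whether these changes with age differ between the genotypes is the interaction, which called 0 genes.

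Likeness of pattern was measured as the mean absolute difference of log2 CPM, each gene centred on its own mean, over the 11 libraries. Among 12223 genes of at least 5 mean CPM, Pde11a (0.549), Pkp1 (0.554) and Calb1 (0.797) were nearest to Chat, beside a median of 1.95. Pde11a was at 33.2, 28.4 and 0.895 CPM in wild-type P8 and 16.5, 6.68 and 22.4 in Kir2.1 P8, low in the libraries that were low for Chat. Nearest to Chrnb3 were Fstl4 (0.226), Snhg11 (0.237) and Gpr153 (0.244), beside a median of 0.641. Among the members themselves, Slc18a3 was nearest to Chat (0.757), Slc18a3 and Slc5a7 to each other (0.616), Chrna6 and Chrnb3 to each other (0.291), and Chrna4 and Chrnb2 to each other (0.219). Chrnb2 was also the nearest member to Ache (0.234), and Chrna4 to Chrna7 (0.251). Chrna3 had its nearest member, Ache, at 0.528, farther than the nearest of any other receptor gene.

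**Figure D5:**
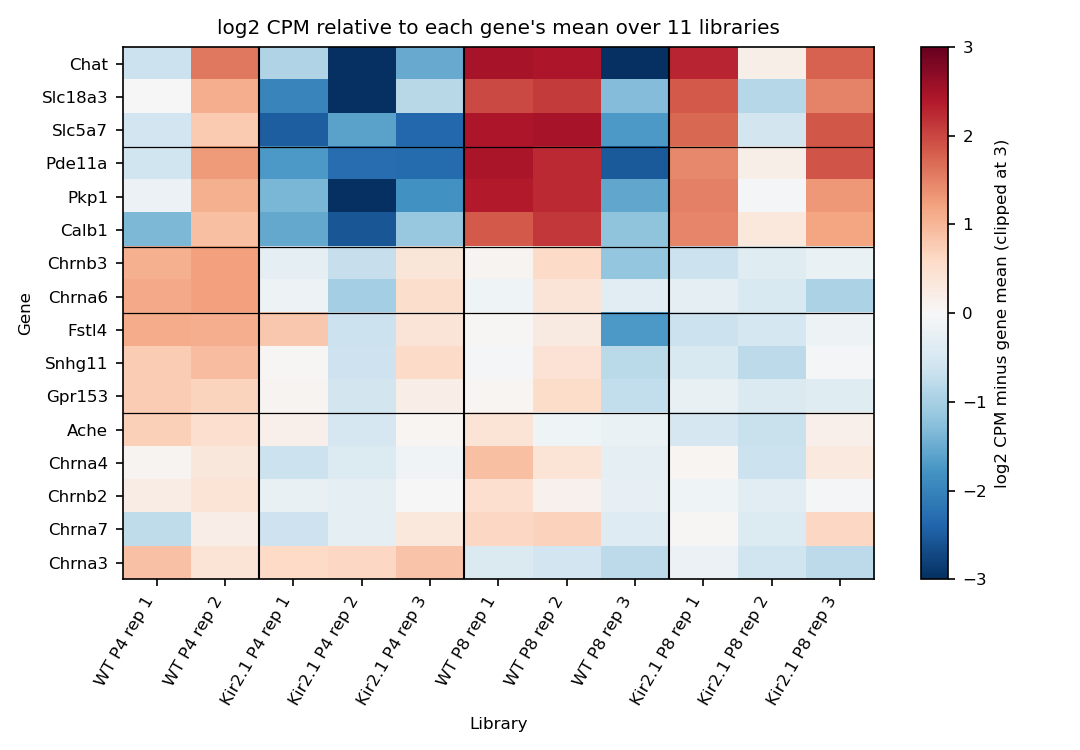
Log2 CPM of 16 genes relative to each gene's mean over the 11 libraries (columns, by group); colours are clipped at 3 in either direction. Chat, Slc18a3, Slc5a7 and the 3 genes nearest to Chat are low in wild-type P8 replicate 3, Chrna6 and Chrnb3 are highest in wild-type P4, and Chrna3 divides by age.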

How the data were processed

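Total RNA of dissociated mouse retinas was sequenced, per the labels' protocols. The authors deposited whole-number counts per Ensembl gene, 1 table per library. The submitters' processing notes name cutadapt 1.18, STAR 2.5.0c, SAMtools 1.9, bedtools 2.26.0, HTSeq 0.6.1, DESeq2 and the build mm10. The annotation and strand setting are not given in the sources used here. Records that are not genes were left out. They made up 74.6% to 79.8% of the records counted, which is not a share of reads. In each library they outnumbered the stated reads, with 35830155 such records against 20336665 reads in wild-type P4 replicate 1. Per the file headers, the authors' 2 comparison tables hold a mean normalized count (a signal on the authors' own scale), a log2 fold change with its SE, a statistic (a score) and p-values, raw and adjusted. Values from them are named as such.

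Counts were fitted with edgeR 4.0.16 in R 4.3.3: filterByExpr by group, TMM factors from 0.964 to 1.05, a quasi-likelihood model of 4 group means over all 11 libraries (common BCV, the biological spread, 0.247) and Benjamini-Hochberg adjustment over 18188 genes at 0.05. The filter, the test and the contrasts between 2 groups were tested on simulated data. The interaction was not tested in this way. Nor were spreads as large as those of Chat (BCV 0.976), Slc18a3 (0.707) and Slc5a7 (0.690). Log2 CPM used a prior count of 2. Levels per kilobase used the union of GENCODE release 21 exons. Symbols matched 46488 of 47069 IDs. Of the 10 members, 8 had a window in the RefSeq promoter table. The members, lists and naming rule were chosen with earlier results of these data known. The rule named all members, the called genes of each pathway list (or its 2 highest) and the 3 genes nearest to Chat and to Chrnb3 in pattern. Alternatives were DESeq2 1.42.0 size factors and test, voom in limma 3.58.1, other filters, a replicate block, leaving out genes over 1% of counts, fits of the compared groups alone, and leaving out each library.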

Additional observations from a re-analysis of the deposited data

How the results depend on the processing

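Of the 40 fold changes of members, none of those called was reversed under any alternative. The DESeq2 test called 34 genes at P4, 3 at P8 and 1545 with age in wild type, where it called 2 members (Chrna3 and Chrna6). Under voom, 1 member and 4286 genes were called with age in Kir2.1, against 3 and 3029 in edgeR. Without a filter, when 36534 genes were fitted and each gene's own spread received no weight (infinite median prior degrees of freedom against 5.05), there were 339 genes and 5 members (Chat, Slc18a3, Slc5a7, Chrna6 and Chrnb3) at P4, 447 genes at P8, 136 genes and 3 members in the interaction, and 2058 genes and 4 members with age in wild type. A fit of wild-type libraries alone called 113 genes and 0 members with age. Leaving out 1 library gave 0 to 6 genes at P4, 0 to 219 at P8 (219 without wild-type P8 replicate 3), 0 to 1 in the interaction, 163 to 1339 with age in wild type (members 0 to 1) and 1764 to 2169 with age in Kir2.1 (members 1 to 3).

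Some fold changes, none of them called, changed direction when 1 library was left out. At P4 they ran from -0.17 to 0.29 for Chrna3 and from -0.36 to 0.65 for Chrna7. At P8 they ran from -0.80 to 0.22 for Chat, -0.84 to 0.15 for Slc18a3, -0.74 to 0.025 for Chrnb3 and -0.10 to 0.22 for Chrna3. With age in wild type they ran from -0.12 to 0.47 for Chrna4 and -0.37 to 0.014 for Chrnb2. With age in Kir2.1 they ran from -0.78 to 0.0068 for Chrna6, -0.031 to 0.59 for Chrna7, -0.052 to 0.10 for Chrnb2 and -0.46 to 0.10 for Chrnb3. The cause was not tested.

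Correlations of deviations from the group mean ran from -0.0757 to 0.139 for same-numbered libraries and from -0.147 to 0.133 for differently numbered ones. Between Kir2.1 P4 and Kir2.1 P8 the same-numbered pairs had 0.0483, 0.139 and 0.129, and the other pairs -0.147 to 0.0343. With so few libraries per group, these values do not settle whether replicate numbers pair the libraries. With a replicate block, Chrna7 at P4 was at -0.018, Chat at P8 at 0.11, and the rise of Slc18a3 in Kir2.1 lost its call (adjusted p = 0.0777 in edgeR). Chat had 0 to 120 counts in the P4 libraries and 2 to 216 at P8, so counting error limits its lowest values.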

Other observations

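Chrnb4, whose gene adjoins Chrna3 and Chrna5, was chosen after its values were seen. It was at 19.8 and 30.03 CPM in wild-type P4, 37.0, 49.3 and 44.6 in Kir2.1 P4, 21.3, 22.6 and 25.9 in wild-type P8, and 34.6, 33.7 and 33.2 in Kir2.1 P8. All Kir2.1 libraries were above all wild-type libraries at both ages, while neither difference was called: the log2 fold change was 0.81 ± 0.19 at P4 (SE, adjusted p = 0.599 in edgeR) and 0.54 ± 0.17 at P8 (adjusted p = 0.699). Kir2.1 lay above wild type with no overlap for 12.4% of genes at P4 and 5.5% at P8.

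Of the 6 genes whose spread within groups exceeded that of Chat, 4 (Eif2s3y, Ddx3y, Uty and Kdm5d) lie on the Y chromosome. Kdm5d was at 0.384 CPM in Kir2.1 P4 replicate 2 and 0.0851 in wild-type P8 replicate 2, and at 12.9 to 64.5 in the other libraries. Kir2.1 P4 replicate 2 was also the library with Chat at 0, and Kir2.1 P8 replicate 2, low for Chat, had the lowest Kdm5d of its group (12.9 CPM). Other libraries went the other way. Wild-type P8 replicate 3, the lowest for Chat at that age, had 53.5 CPM of Kdm5d. Wild-type P8 replicate 2, almost without Kdm5d, had Chat at 18.4 CPM. The highest Chat of all libraries, 19.1 CPM, was in wild-type P8 replicate 1, where Kdm5d was at 14.4 CPM. The part of these genes in the values of Chat was not tested.

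The mouse gene Kcnj2, also picked after its values were seen, had rank 53 of 12232 in likeness to Chat (mean absolute difference 1.30). It was at 15.1, 17.2 and 3.74 CPM in wild-type P8 and 17.1, 4.91 and 11.3 in Kir2.1 P8, low in the libraries low for Chat.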
